A study of Mus musculus with 9 samples.

Results

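The genes described here are 38 genes of the cell cycle and DNA replication, a list of S-phase and mitotic genes matched by symbol to the deposited expression table. All 38 were found among the 21470 genes of the table. They were read in liver RNA of mice from 3 groups of 3 libraries each: a sham-operated group, a group with bile duct ligation (BDL), and a ligated group that was also given LIG, the plant phthalide ligustilide, called LIG20 in the sample titles. Ligation of the bile duct blocks bile flow, and the series' title names it as the cause of liver fibrosis in this model, so the series asks what LIG does to gene expression in the ligated liver. The LIG20 mice also carried the ligation, which the sham mice did not. The design text gives the dose as 10 mg/kg whereas the titles carry the number 20, so the dose behind these libraries cannot be settled from the labels. Strain, sex, age, the time from surgery to collection and the schedule of LIG are not stated in the sources used here. Whether the 3 libraries of a group stem from 3 mice is not stated, so the p-values below measure only the spread between these libraries.

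A dividing cell passes from G1, in which cyclin D1 and cyclin E act with their kinases to start the cycle, through S phase, in which the MCM helicase opens DNA at licensed origins and PCNA clamps the polymerases onto it, to mitosis, which is driven by CDK1 with the A and B cyclins and ended by the anaphase-promoting complex. The E2F factors turn on genes of G1 and S phase, and FOXM1 and the MuvB complexes turn on genes of G2 and mitosis. Hepatocytes of the adult liver are mostly out of the cycle and re-enter it after loss of tissue or injury, while ligation of the bile duct is known for the growth of bile duct cells around the portal tracts.

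The libraries held 34815965 to 40780517 fragments, as recovered from the steps between low FPKM values (fragments corrected for gene length and library depth, the unit of the table). LIG20 library 2, which stands apart below, held 39411635 fragments and was not the deepest. Hepatocyte markers were abundant in every library, with albumin (Alb) at 16200 to 33900 FPKM and Apoa1 at 9750 to 19300 FPKM. In whole-liver RNA, fewer cells of a type and less RNA per cell cannot be told apart.

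Promoter sequence of 5 of the genes is shown so that the letters known for cell cycle control can be read beside the values that follow. In each of 5 roles the gene with the smallest p in BDL against sham was taken, among genes with a promoter entry. Each line gives the 120 bases before the transcription start from RefSeq on build GRCm38.p6, an earlier build than that of the expression table, read 5′ to 3′ on the gene's own strand. Capitals mark a match on either strand. An E2F site was searched as TTCGCGC, with TTGGCGC also taken, with TTCCCGC also taken and with TTGCCGC also taken. A CHR element, which MuvB complexes bind, was searched as TTTGAA, with TTCGAA also taken, and a CCAAT box by the letters of its name.
Mcm6, replicative helicase, chr1:128359706-128359825, minus strand: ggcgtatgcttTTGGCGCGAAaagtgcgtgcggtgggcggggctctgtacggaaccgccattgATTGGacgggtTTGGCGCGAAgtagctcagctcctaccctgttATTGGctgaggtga
Tk1, thymidine kinase, chr11:117826015-117826134, minus strand: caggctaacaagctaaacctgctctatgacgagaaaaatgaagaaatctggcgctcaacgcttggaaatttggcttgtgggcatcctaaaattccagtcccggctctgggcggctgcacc
Aurka, mitotic kinase, chr2:172370571-172370690, minus strand: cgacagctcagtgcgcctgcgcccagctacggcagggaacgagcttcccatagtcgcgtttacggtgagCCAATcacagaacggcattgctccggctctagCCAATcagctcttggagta
Ube2c, ubiquitin-conjugating enzyme, chr2:164769809-164769928, plus strand: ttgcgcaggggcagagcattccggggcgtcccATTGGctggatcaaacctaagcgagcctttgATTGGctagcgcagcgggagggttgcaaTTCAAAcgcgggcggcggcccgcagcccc
Prc1, spindle midzone protein, chr7:80294331-80294450, plus strand: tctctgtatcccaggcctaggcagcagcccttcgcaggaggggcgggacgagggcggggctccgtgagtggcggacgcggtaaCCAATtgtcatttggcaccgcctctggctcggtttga

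The Mcm6 window held 4 E2F matches as overlapping pairs on opposite strands, the first beginning 109 and the other 46 bases before the start. The Ube2c window held 1 CHR match, 29 bases before the start, below its CCAAT matches at 88 and 57 bases. No searched letters were found in the Tk1 window, which says only that they are not in these 120 bases. Of the 38 genes, 30 had a promoter entry. A CCAAT match was present in 23 of the 30 (76.7%, against 22.1% of 27025 promoters of the same length), a CHR match in 8 (26.7% against 7.72%) and an E2F match in 4 (13.3% against 4.5%). Both a CHR and a CCAAT match were present in 6 of the 30, against 454 of the 27025 (1.68%), and the 6 were Ube2c, Cdc20, Hmgb2, Cdk1, Top2a and Kif11. These are counts of letters, not of bound sites.

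Most of the 38 genes lay near or below 1 FPKM. In the sham libraries 24 of them were under 1 FPKM throughout, and in the BDL libraries 20. Only 8 reached 1 FPKM in all 9 libraries, namely Ccnd1, Mcm7, Pcna, Rrm1, Tk1, Cenpa, Hmgb2 and Stmn1. None was listed at 0, and the counts behind the values ran from 2 fragments (Bub1 in BDL library 1, Cenpf in sham library 1) to 9250 (Ccnd1 in LIG20 library 2), with a median of 44.5 fragments per gene and library in sham and 90.5 in BDL. Counting error is therefore large for the centromere and checkpoint genes and small for Ccnd1, Pcna, Tk1 and Stmn1. All 38 passed the filter of a mean of at least 0.1 FPKM over the 9 libraries, which left 14002 genes, but 3 of them (Bub1, Cenpe and Cenpf) averaged under it in the other 8 libraries and passed only through LIG20 library 2.

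Summed over the 38 genes, the level was 75.3, 69.2 and 68.1 FPKM in the sham libraries, 95.7, 102 and 107 FPKM in the BDL libraries, and 110, 374 and 145 FPKM in the LIG20 libraries. The sham and BDL sums did not overlap, and each LIG20 sum lay above both, but the abundant genes weigh most in a sum. The median level of the 38 genes was 0.557, 0.347 and 0.455 FPKM in sham and 0.55, 0.816 and 0.885 FPKM in BDL, which overlap. In LIG20 the median was 0.724, 4.37 and 1.31 FPKM, so library 1 lay within the BDL range. LIG20 library 2 had a larger sum than the other LIG20 libraries together. It had the highest level of the 9 libraries for 38 of the 38 genes, where 31.3% of all genes tested were at their highest in it, and it was at least 2 times the highest of the other 8 libraries for 31 of the 38, against 1.73% of all genes tested. The median ratio to the highest other library was 3.53 for the 38 genes and 0.868 for all genes tested. These values were noticed in the data and are a description of 1 library, so every comparison below is also given without it.

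**Figure D1:**
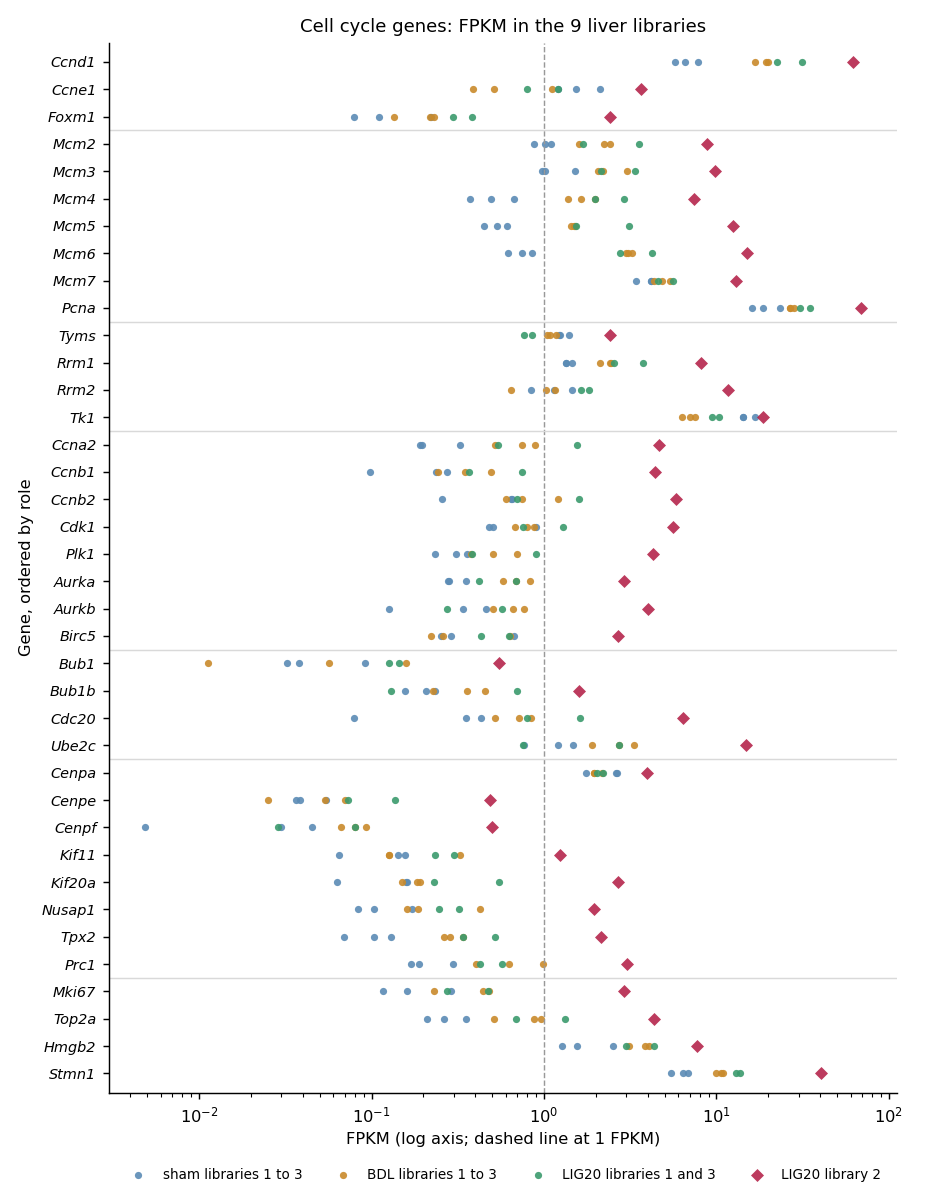
FPKM of each of the 38 genes in the 9 libraries on a log axis, 1 row per gene in the order of roles, with circles for the sham, BDL and other LIG20 libraries, a diamond for LIG20 library 2 and a dashed line at 1 FPKM. The diamond is the rightmost mark in all 38 rows, and 35 of the diamonds lie at or above 1 FPKM.

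In the comparison of ligation with sham, the mean was higher in BDL for 32 of the 38 genes and lower for 6 (Ccne1, Tyms, Rrm2, Tk1, Birc5 and Cenpa), with a median ratio of means of 1.78 where all genes tested had 1.16. With limma on log2(FPKM + 1) over all 9 libraries, 2 genes passed an adjusted p of 0.05. Log2 changes below are differences on that scale and understate the ratio for genes near or below 1 FPKM. Ccnd1 rose, as did 17.8% of all genes tested, and Tk1 fell, as did 5.23%. Without LIG20 library 2 in the fit, the same changes were set against a smaller spread and 12 genes rose (17.9% of all genes tested) and 2 fell (5.21%). The 12 were Ccnd1, Mcm3, Mcm4, Mcm5, Mcm6, Pcna, Rrm1, Aurka, Prc1, Top2a, Hmgb2 and Stmn1, and the 2 were Tk1 and Ccne1. Without LIG20 library 1 instead, 4 rose and 1 fell, where 2449 of all genes tested rose and 692 fell. In a fit of the sham and BDL libraries alone 14 rose (17.1% of all genes tested) and Tk1 fell (4.62%). The 14 were Ccnd1, Mcm2, Mcm3, Mcm4, Mcm5, Mcm6, Rrm1, Aurka, Ccna2, Ube2c, Tpx2, Top2a, Hmgb2 and Stmn1. Ccnd1 and Tk1 passed under all 21 alternatives. The 3 BDL libraries lay wholly above the 3 sham libraries for 21 of the 38 genes (31.7% of all genes tested) and wholly below for 3 (9.95%).

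The scaling of the libraries bears on these counts, since the median log2 change of all genes was 0.12 in FPKM and -0.02 after median-of-ratios scaling or quantile normalization. Relative to that median, 26 of the 38 genes lay above and 12 below in FPKM, 32 above and 6 below after median-of-ratios scaling, and 28 above and 10 below after quantile normalization. The direction from 0 was upward for 32, 31 and 26 genes in turn. Foxm1, Cdk1, Bub1, Cenpe, Kif11 and Kif20a were the genes whose direction turned under quantile normalization, Cenpe also under median-of-ratios scaling, and none of these 6 passed the test. Calls over all genes were 77.3% upward in FPKM and 52.2% upward after median-of-ratios scaling. The same scaling moved the median of all genes from 0.15 to 0.0 and the upward share of calls from 85.8% to 46.0% for LIG20 against BDL, and from 0.27 to -0.02 and from 84.8% to 49.0% for LIG20 against sham.

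**Figure D2:**
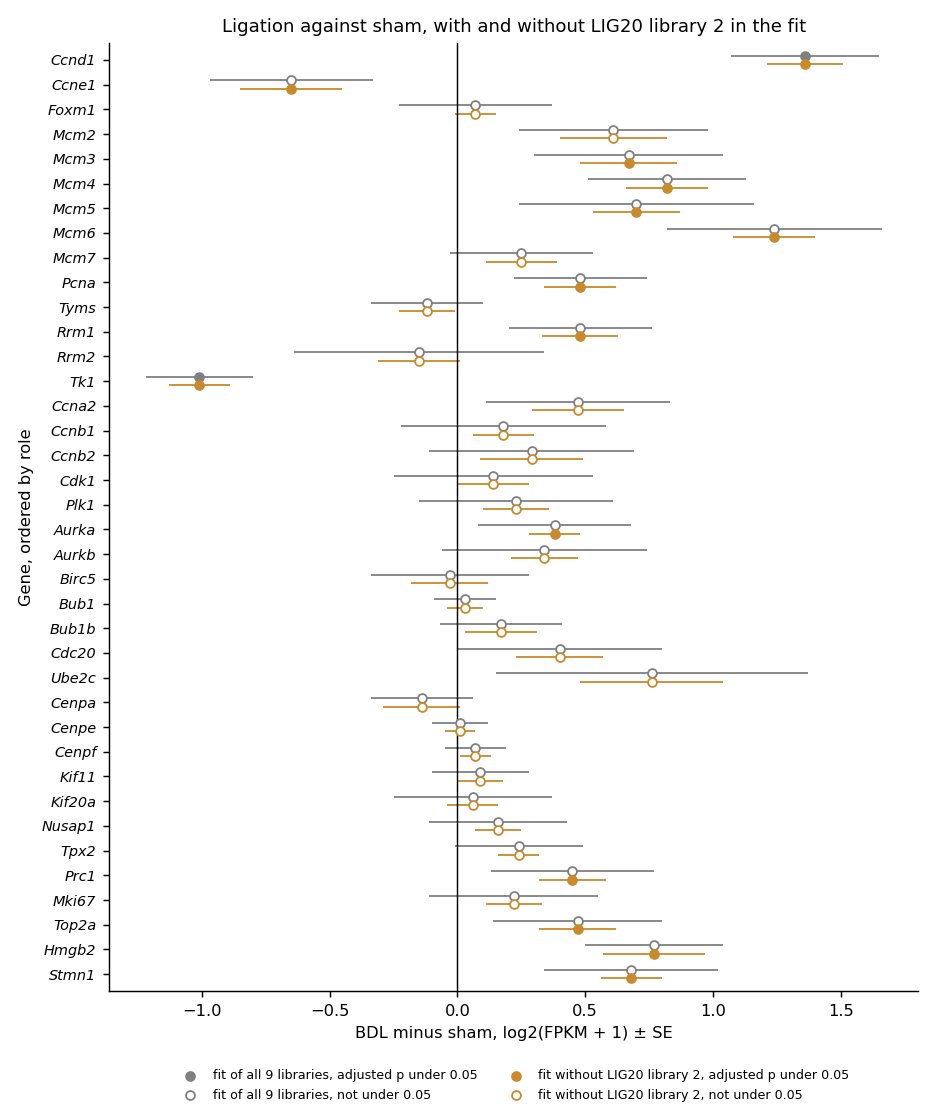
Difference of BDL and sham on the log2(FPKM + 1) scale with its standard error for each of the 38 genes, from the fit of all 9 libraries (grey) and from the fit without LIG20 library 2 (orange), with filled marks for an adjusted p under 0.05. The differences are the same in both fits and the error bars are shorter in the second, where 14 marks are filled in place of 2.

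Among the genes of G1 entry, Ccnd1, which codes for cyclin D1, the partner of CDK4 and CDK6, was the most abundant in ligated liver. Ccnd1 stood at 7.81, 5.78 and 6.56 FPKM in sham, at 16.8, 19.4 and 19.8 FPKM in BDL, and at 22.6, 62.3 and 31.2 FPKM in LIG20. The 3 groups did not overlap. Its BDL mean was 2.78 times its sham mean. On the log2(FPKM + 1) scale the change was 1.36 ± 0.29 (SE, n = 3 per group, limma adjusted p = 0.00774). From BDL to LIG20 the log2 change of Ccnd1 was 0.89 ± 0.29 (limma adjusted p = 0.0814), and without LIG20 library 2 it was 0.49 ± 0.17 (adjusted p = 0.15). Of all the fits, only that without LIG20 library 1 passed for this change. In the other fits the difference between LIG20 and BDL was not separated from the spread of the libraries.

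Ccne1, which codes for cyclin E1, the partner of CDK2, went the other way on ligation. Ccne1 was at 2.1, 1.2 and 1.54 FPKM in sham and at 0.388, 0.515 and 1.12 FPKM in BDL, so that all BDL libraries lay below all sham libraries. The log2 change was -0.65 ± 0.32 over all 9 libraries (limma adjusted p = 0.171) and -0.65 ± 0.2 without LIG20 library 2 (adjusted p = 0.0421). In LIG20 it stood at 0.792, 3.63 and 1.21 FPKM. Foxm1, the transcription factor of the G2 and mitotic genes, was at 0.0788 to 0.221 FPKM in sham and 0.135 to 0.231 FPKM in BDL, overlapping ranges, and at 0.298, 2.43 and 0.381 FPKM in LIG20. LIG20 library 2 was 6.38 times the highest other library for Foxm1.

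On the log2(FPKM + 1) scale the replication genes had the largest median change on ligation of the 7 roles, 0.67. That scale understates roles whose genes lie below 1 FPKM. As ratios of the BDL mean to the sham mean, the role medians were closer. They were 2.09 for replication, 2.05 for chromatin and cytoskeleton, 2.03 for the checkpoint genes, 1.87 for centromere and spindle and 1.78 for mitotic cyclins and kinases. For G1 entry the median ratio was 1.42 and for nucleotide supply 0.84. The 7 replication genes are Mcm2 to Mcm7, the subunits of the replicative helicase, and Pcna, the sliding clamp. All 7 were higher in each BDL library than in any sham library. This was so for 21 of the 38 genes and for 31.7% of all genes tested. The changes of the 7 replication genes all lay above the median of all genes under each of the 3 scalings. Mcm6 had the largest ratio of these 7 genes. It stood at 0.857, 0.618 and 0.75 FPKM in sham, at 3.08, 2.98 and 3.23 FPKM in BDL and at 2.75, 15.1 and 4.24 FPKM in LIG20. The BDL mean was 4.18 times the sham mean. On the log2(FPKM + 1) scale, which understates this ratio, the change was 1.24 ± 0.42 over all 9 libraries (limma adjusted p = 0.0562). Without LIG20 library 2 it was 1.24 ± 0.16 (adjusted p = 0.000747). The replicates of BDL were close (3.1 ± 0.122 FPKM, SD, n = 3), while LIG20 spread over more than the whole distance between sham and BDL.

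Mcm4 and Mcm5 behaved alike on ligation. Mcm4 was at 0.667, 0.37 and 0.495 FPKM in sham and 1.38, 1.65 and 1.98 FPKM in BDL, a log2 change of 0.82 ± 0.31 (limma adjusted p = 0.0849, and 0.00623 without LIG20 library 2). Mcm5 was at 0.608, 0.534 and 0.45 FPKM in sham and 1.52, 1.49 and 1.44 FPKM in BDL, a log2 change of 0.7 ± 0.46 (adjusted p = 0.313, and 0.0198 without that library). Both were under 1 FPKM in every sham library and over it in every BDL library. In LIG20, Mcm5 stood at 1.54, 12.5 and 3.11 FPKM, so its first library was near BDL and its second 4.01 times the highest other.

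Of the other 4 replication genes, Mcm3 and Pcna did not pass over all 9 libraries and rose in the limma fit without LIG20 library 2 (adjusted p = 0.0317 and 0.0377). With sham and BDL alone Mcm3 rose (0.0311) and Pcna did not pass (0.0515). Mcm2 did not pass without LIG20 library 2 (0.0611) and rose with sham and BDL alone (0.0267), while Mcm7 passed in none of these fits (0.238 and 0.266). Pcna was the most abundant of the 7, at 18.7, 23.4 and 16.1 FPKM in sham, 28.0, 26.6 and 26.8 FPKM in BDL and 30.6, 68.8 and 34.9 FPKM in LIG20. Its BDL mean was 1.4 times the sham mean. Mcm7 was also well expressed in sham (3.94 ± 0.452 FPKM, SD, n = 3) and reached 4.86 ± 0.51 FPKM in BDL. Processed pseudogene copies of Pcna, Tyms and Stmn1 exist in the mouse genome, and the labels do not say how reads shared with them were counted.

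The genes of nucleotide supply did not move together. Tk1, thymidine kinase of the salvage route, fell on ligation. It stood at 16.7, 14.2 and 14.3 FPKM in sham, 7.52, 6.3 and 7.05 FPKM in BDL and 9.47, 18.6 and 10.4 FPKM in LIG20. The sham mean was 2.17 times the BDL mean. On the log2(FPKM + 1) scale the change from sham to BDL was -1.01 ± 0.21 (limma adjusted p = 0.00657). The LIG20 libraries 1 and 3 lay between BDL and sham, and library 2 lay above sham.

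From BDL to LIG20 the log2 change of Tk1 was 0.74 ± 0.21 (limma adjusted p = 0.0579), the lowest adjusted p of the 38 genes in that comparison. It passed in 4 of the 21 alternatives (adjusted p of 0.033 to 0.0478, in fits without LIG20 library 1, without sham library 1, of BDL and LIG20 alone, and of genes with at least 1 FPKM in 3 libraries) and ranged from 0.0572 to 0.353 in the others. Without LIG20 library 2 it was 0.46 ± 0.13 (adjusted p = 0.102).

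Rrm1, the large subunit of ribonucleotide reductase, was at 1.35, 1.34 and 1.46 FPKM in sham and 2.12, 2.46 and 2.41 FPKM in BDL (log2 change 0.48, limma adjusted p = 0.249, and 0.0441 without LIG20 library 2). Rrm2, the small subunit of the same enzyme, was at 1.45, 1.15 and 0.841 FPKM in sham and 0.641, 1.16 and 1.03 FPKM in BDL, which overlap. In LIG20 Rrm2 stood at 1.65, 11.7 and 1.82 FPKM. Its 3 LIG20 libraries all lay above the 3 BDL libraries, and library 2 was 6.46 times the highest other, the largest such ratio of the 38 genes. Tyms, thymidylate synthase, was slightly lower in BDL (1.04 to 1.18 FPKM) than in sham (1.22 to 1.4 FPKM) without overlap, and lower again in LIG20 libraries 1 and 3 (0.85 and 0.769 FPKM) but not in library 2 (2.41 FPKM). Its change on ligation did not pass (log2 change -0.12, adjusted p = 0.742).

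The 8 mitotic cyclins, kinases and their partner survivin were low in sham and BDL, with 8-gene sums of 2.29 to 3.21 FPKM in sham and 3.97 to 5.56 FPKM in BDL. Aurka, the centrosome kinase whose promoter is printed above, did not pass over all 9 libraries and rose in the fit without LIG20 library 2. Aurka was at 0.355, 0.276 and 0.28 FPKM in sham and 0.578, 0.831 and 0.689 FPKM in BDL (log2 change 0.38, limma adjusted p = 0.401, 0.0286 without that library, and 0.028 with sham and BDL alone). Ccna2, cyclin A2, had a BDL mean 3.03 times the sham mean with no overlap (0.192 to 0.326 against 0.523 to 0.893 FPKM), but did not pass over all 9 libraries (limma adjusted p = 0.384) or without LIG20 library 2 (0.0887), and rose in the fit of sham and BDL alone (0.0207). Cdk1, the mitotic kinase itself, was at 0.481 to 0.896 FPKM in sham and 0.682 to 0.878 FPKM in BDL.

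In the LIG20 libraries the same 8 genes summed to 3.87, 34.3 and 7.96 FPKM. Library 1 was thus just under the BDL range, library 3 above it, and library 2 far above both. Ccnb1, cyclin B1, stood at 0.367, 4.39 and 0.741 FPKM and Cdk1 at 0.758, 5.57 and 1.29 FPKM. Aurkb, the kinase of the chromosomal passenger complex, stood at 0.275, 4.01 and 0.568 FPKM, and Birc5, which codes for survivin of the same complex, at 0.431, 2.7 and 0.628 FPKM. For Aurkb, libraries 1 and 3 were below the BDL mean of 0.645 FPKM, so that the order of LIG20 and BDL for this gene turned when library 2 was left out. Plk1 and Ccnb2 had the pattern of Ccnb1, with 4.79 and 3.62 times the highest other library in LIG20 library 2.

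Among the 4 genes of the spindle checkpoint and the anaphase-promoting complex, Ube2c, the ubiquitin-conjugating enzyme of that complex, spread most within LIG20. It stood at 0.769, 1.21 and 1.48 FPKM in sham, 1.9, 3.33 and 2.74 FPKM in BDL and 0.751, 14.9 and 2.74 FPKM in LIG20. LIG20 library 1 was the lowest and library 2 the highest of all 9 libraries. BDL lay above sham without overlap, but the log2 change of 0.76 ± 0.61 did not pass over all 9 libraries (limma adjusted p = 0.413) or without LIG20 library 2 (0.0861). In the fit of sham and BDL alone the change was 0.76 ± 0.2 and Ube2c rose (adjusted p = 0.0344). Cdc20, the activator of the complex, was at 0.0792 to 0.434 FPKM in sham, 0.522 to 0.837 FPKM in BDL and 0.798, 6.4 and 1.61 FPKM in LIG20. Bub1 and Bub1b, checkpoint kinase genes, were under 0.5 FPKM in every sham and BDL library.

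Cenpe and Cenpf, kinetochore genes, were at 0.0251 to 0.0698 and 0.0669 to 0.0935 FPKM in BDL and reached 0.484 and 0.498 FPKM in LIG20 library 2, still under 1 FPKM. Cenpa, the centromeric histone H3 variant, was higher, at 1.76 to 2.66 FPKM in sham and 1.94 to 2.16 FPKM in BDL, and only 1.5 times the highest other library in LIG20 library 2. Prc1, the midzone protein whose promoter is printed above, was at 0.169, 0.189 and 0.296 FPKM in sham and 0.403, 0.631 and 0.985 FPKM in BDL (log2 change 0.45, limma adjusted p = 0.361, and 0.0381 without that library). Tpx2, a spindle assembly factor, lay at 0.069 to 0.129 FPKM in sham and 0.263 to 0.34 FPKM in BDL without overlap. It did not pass over all 9 libraries (limma adjusted p = 0.545) or without LIG20 library 2 (0.0607), and rose with sham and BDL alone (0.0444) and with limma-voom without that library (0.0439). The motor genes Kif11 and Kif20a and the spindle gene Nusap1 overlapped between sham and BDL.

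Of the 4 genes of chromatin and cytoskeleton, Stmn1, which codes for the microtubule regulator stathmin, was at 6.36, 5.44 and 6.87 FPKM in sham, 10.6, 10.0 and 10.9 FPKM in BDL and 13.0, 40.3 and 13.7 FPKM in LIG20. Its log2 change on ligation was 0.68 ± 0.34 (limma adjusted p = 0.183, and 0.00393 without LIG20 library 2). Top2a, the topoisomerase of dividing cells, stood at 0.263, 0.21 and 0.355 FPKM in sham, 0.515, 0.962 and 0.871 FPKM in BDL and 0.686, 4.34 and 1.32 FPKM in LIG20 (adjusted p for ligation 0.343, and 0.049 without that library). Hmgb2, a chromatin protein, had a BDL mean 2.07 times the sham mean (adjusted p = 0.0639, and 0.0238).

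Mki67, which codes for the proliferation marker Ki-67, had a BDL mean 2.04 times the sham mean, but the change did not pass in either fit. It stood at 0.29, 0.16 and 0.117 FPKM in sham, 0.229, 0.446 and 0.481 FPKM in BDL and 0.275, 2.91 and 0.472 FPKM in LIG20. Sham and BDL overlapped, and so did BDL and LIG20 libraries 1 and 3. The log2 change on ligation was 0.22 ± 0.33 (limma adjusted p = 0.683, and 0.176 without LIG20 library 2). From BDL to LIG20 it was 0.49 ± 0.33 (adjusted p = 0.357), and without that library -0.01 ± 0.12 (adjusted p = 0.968).

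Between LIG20 and BDL, the LIG20 mean was above the BDL mean for all 38 genes (on the log2 scale for all but Tyms after median-of-ratios scaling or quantile normalization), with a median ratio of 2.61 where all genes tested had 1.21, but no gene passed the test with limma. Over all genes tested 6.5% rose and 1.08% fell. At an unadjusted p under 0.05 there were 10 of the 38 genes and 3961 of all genes, and limma-voom on the recovered fragments also called none of the 38, where 8.16% of all genes rose and 1.09% fell. Without LIG20 library 2 the median ratio was 1.29 against 1.17 for all genes, 30 genes lay above the BDL mean and 8 below (24 and 14 after median-of-ratios scaling, 20 and 18 after quantile normalization), and again none passed, where 0.821% of all genes rose and 0.357% fell. At an unadjusted p under 0.05 there were then 4 of the 38 genes and 3103 of all genes, and limma-voom without that library also called none, where 1.39% of all genes rose and 0.371% fell.

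LIG20 library 2 lay above all 3 BDL libraries for 38 of the 38 genes (62.9% of all genes tested). The other LIG20 libraries were not alike. LIG20 library 1 lay above all 3 BDL libraries for 11 of the 38 genes (49.4% of all genes tested) and below all 3 for 8 (24.8%), so fewer of the 38 than of all genes were above. LIG20 library 3 lay above all 3 for 27 (55.5%) and below all 3 for 1, Tyms (19.4%). It had the highest level of the 8 libraries other than LIG20 library 2 for 24 of the 38 genes (27.1% of all genes tested). All 3 LIG20 libraries lay above all 3 BDL libraries for 11 genes (37.0% of all genes tested).

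**Figure D3:**
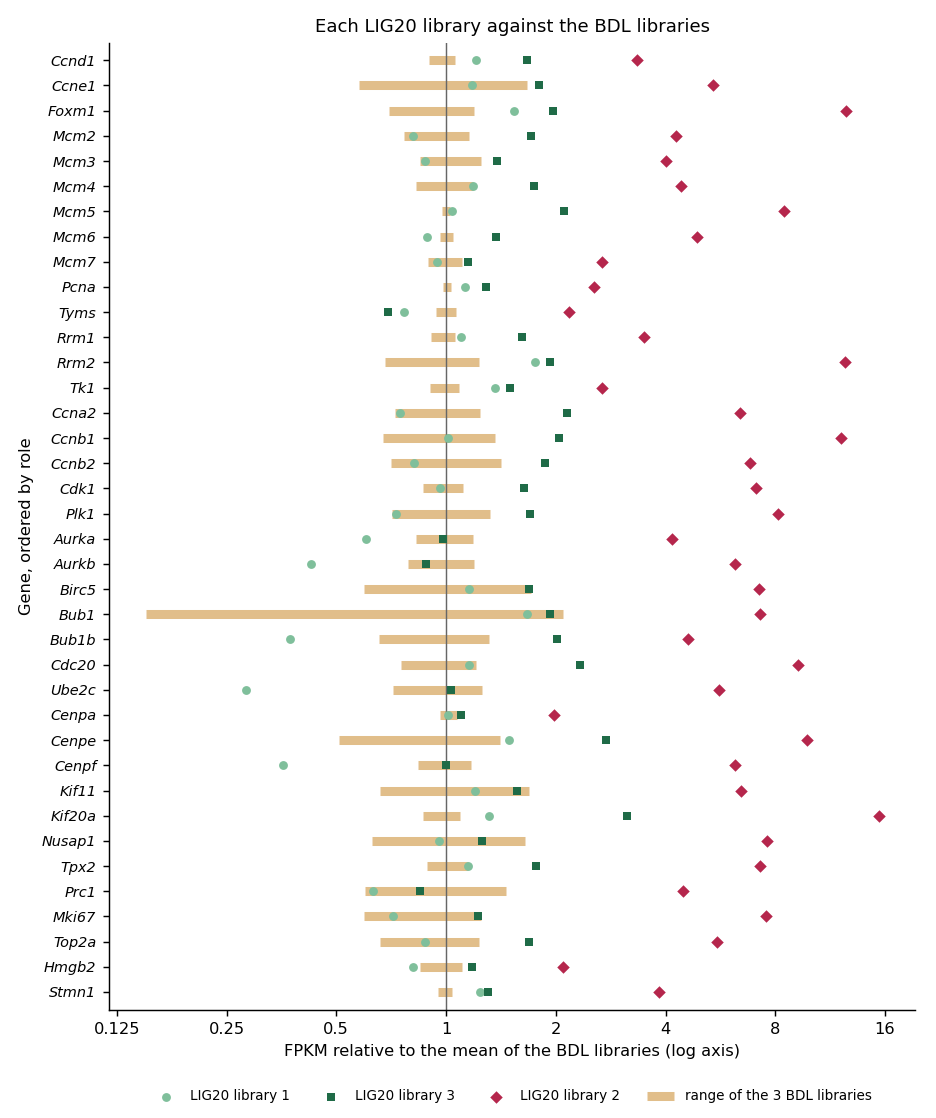
FPKM of each LIG20 library divided by the mean of the 3 BDL libraries, on a log axis with 1 row per gene, and the range of the BDL libraries as an orange bar. LIG20 library 2 (diamonds) is to the right of the bar in all 38 rows, library 3 (squares) in 27 and library 1 (light circles) in 11.

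Between LIG20 and sham, 14 of the 38 genes rose and none fell with limma over all 9 libraries, where 39.3% of all genes tested rose and 7.06% fell. At an unadjusted p under 0.05 there were 26 of the 38 genes and 7582 of the 14002 genes tested. The 14 were Ccnd1, Mcm2, Mcm3, Mcm4, Mcm5, Mcm6, Pcna, Rrm1, Ccna2, Cdc20, Tpx2, Top2a, Hmgb2 and Stmn1. Without LIG20 library 2 the same 14 rose (31.8% of all genes tested) and Tk1 fell (6.2%), with a log2 change of -0.55 ± 0.13 (limma adjusted p = 0.0118). Without LIG20 library 1, 31 of the 38 rose, where 5175 of all genes tested rose and 763 fell. With all libraries, 12 rose and Tk1 fell after median-of-ratios scaling, where 2804 of all genes rose and 2921 fell. After quantile normalization 7 rose and Tk1 fell, where 2820 of all genes rose and 2550 fell. With LIG20 library 2 left out, 7 rose and 3 fell (Ccne1, Tk1 and Tyms) after median-of-ratios scaling, where 2240 of all genes rose and 2199 fell. After quantile normalization without that library, 6 rose and 4 fell (those 3 and Cenpa), where 2397 of all genes rose and 2010 fell. Ccnd1, Mcm4, Mcm5, Mcm6 and Stmn1 rose under all 21 alternatives. Ccnd1 had a log2 change of 2.25 ± 0.29 (adjusted p = 0.000232) with all libraries and 1.85 ± 0.17 (adjusted p = 0.000157) without library 2. All LIG20 libraries lay above all sham libraries for 27 of the 38 genes (44.0% of all genes tested). LIG20 and BDL were both compared with the same sham libraries, so these counts and those for ligation are not independent.

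The 7 genes that were under 2 times the highest other library in LIG20 library 2 were Tk1, Cenpa, Tyms, Ccne1, Hmgb2, Pcna and Ccnd1, in rising order from 1.12 to 2.0 (Ccnd1 lay just under 2). At the other end were Rrm2, Foxm1, Mki67 and Ccnb1, at 6.46, 6.38, 6.04 and 5.93. By role, the median ratio was 1.94 for nucleotide supply, 2.53 for the replication genes, 3.71 for the checkpoint genes, 3.96 for the centromere and spindle genes and 4.19 for the mitotic cyclins and kinases. These ratios are the description of 1 library and carry no test.

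Other genes of the cell cycle were read from 8 lists of 174 genes, of which 159 passed the filter. LIG20 library 2 was highest of the 9 libraries for 129 of the 159, against 31.3% of all genes tested. Of the 159, 15 averaged under 0.1 FPKM in the other 8 libraries and passed the filter only through LIG20 library 2. Among the other 144 it was highest for 114 (79.2%), against 30.8% of the 13854 genes that passed without it. By list it was highest for 35 of 36 other replication genes, 34 of 37 kinetochore, spindle and cytokinesis genes, 18 of 21 genes of mitotic entry and exit, 14 of 17 condensin, cohesin and chromatin assembly genes and 8 of 8 recombination repair genes. The share was lower among E2F, DREAM and MYB factors (10 of 18), cell cycle inhibitors (6 of 13) and other G1 cyclins and cyclin-dependent kinases (4 of 9). Nek2, a centrosome kinase, stood at 0.611 and 1.07 FPKM in the other LIG20 libraries and at 4.14 FPKM in library 2.

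**Figure D4:**
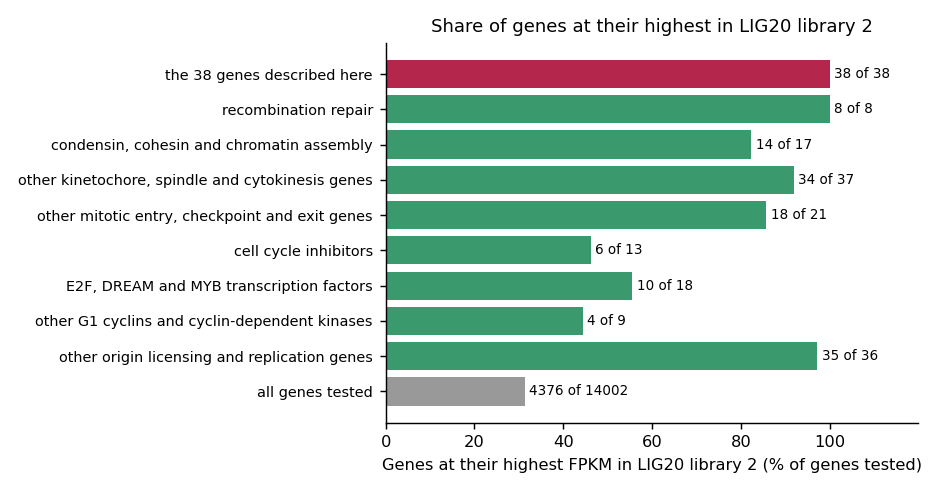
Share of tested genes, in percent, with their highest FPKM of the 9 libraries in LIG20 library 2, for the 38 genes, for each of the 8 lists of other cell cycle genes and for all genes tested, with the counts at the bar ends. All 38 genes and 8 of 8 recombination repair genes are highest there, against 6 of 13 inhibitors and 31.3% of all genes tested. The 38 include 3 genes, and the 159 of the lists 15, that passed the filter only through that library.

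With limma over all 9 libraries, ligation gave the following counts in these lists, where 17.8% of all genes tested rose and 5.23% fell. In all, 2 of 36 other replication genes rose and 1 fell, 2 of 9 G1 cyclins and kinases rose, 1 of 18 E2F, DREAM and MYB factors fell, 1 of 21 mitotic entry and exit genes rose and 1 fell, 1 of 37 kinetochore and spindle genes and 1 of 17 condensin and chromatin genes rose, and none of 8 recombination repair genes passed (1 at an unadjusted p under 0.05, and none with limma-voom). Of the 13 inhibitors 6 rose and 1 fell. Without LIG20 library 2, where 17.9% of all genes rose and 5.21% fell, 6 other replication genes rose and 1 fell, 4 mitotic entry and exit genes rose and 1 fell, and 5 kinetochore and spindle genes rose and 1 fell. The inhibitors then gave 7 up and 1 down, and the G1, E2F and condensin lists the same counts as before. None of the recombination repair genes passed without that library either (3 at an unadjusted p under 0.05, and 1 with limma-voom). Cdkn1a, which codes for the CDK inhibitor p21, was at 0.311, 0.125 and 0.549 FPKM in sham, 29.5, 24.9 and 23.3 FPKM in BDL and 22.2, 30.3 and 23.4 FPKM in LIG20 (log2 change 4.35 ± 0.17 on ligation, adjusted p = 7.35e-07). The antiproliferative gene Btg2 (log2 change 2.47) and the stress gene Gadd45g (2.92) also rose. LIG20 library 2 was 1.03 times the highest other library for Cdkn1a.

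Mcm10, a replication initiation factor, had the opposite direction to the helicase genes. It was at 20.7, 14.8 and 21.8 FPKM in sham and 2.02, 1.72 and 2.33 FPKM in BDL (log2 change -2.72 ± 0.24, limma adjusted p = 3.76e-05). Pttg1, the securin gene, fell too (log2 change -0.6, adjusted p = 0.0421). Lig1, DNA ligase of the lagging strand, rose from 0.557 to 0.619 FPKM in sham to 1.78 to 2.49 FPKM in BDL (adjusted p = 0.0151), Rfc2 of the clamp loader rose (log2 change 0.77, adjusted p = 0.0205), and so did Cenpm of the kinetochore (log2 change 1.76, adjusted p = 0.000152). Mcm10, Pttg1, Lig1, Rfc2 and Cenpm also passed without LIG20 library 2 (limma adjusted p of 3.88e-05, 0.0426, 0.00107, 0.00385 and 0.000308). From BDL to LIG20, where 6.5% of all genes tested rose and 1.08% fell, 5 of the 159 genes rose and none fell. They were the G1 cyclin gene Ccnd2 (log2 change 0.57, limma adjusted p = 0.0341), the pocket protein gene Rbl2 (0.8, adjusted p = 0.0331), the repair gene Brca1 (0.5, adjusted p = 0.0328), Btg2 (0.69, adjusted p = 0.0193) and the phosphatase gene Cdc25b (0.57, adjusted p = 0.0402). Without LIG20 library 2 none of the 159 passed with limma (25 at an unadjusted p under 0.05), where 0.821% of all genes tested rose and 0.357% fell. With limma-voom without that library none of the 159 passed either, where 1.39% of all genes rose and 0.371% fell.

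Markers of other liver cells moved with the groups as well. The counts for ligation stand beside 17.8% of all genes tested that rose and 5.23% that fell. On ligation, 10 of 10 macrophage markers rose (summed level 79.8 to 123 FPKM in sham and 403 to 599 in BDL), as did 7 of 10 cholangiocyte markers (25.0 to 45.0 and 415 to 612), 6 of 10 stellate cell and myofibroblast markers (9.39 to 28.5 and 51.9 to 75.7), 5 of 9 neutrophil markers (3.67 to 6.96 and 42.1 to 46.9) and 1 of 8 endothelial markers (26.3 to 31.5 and 32.5 to 35.7). Of 8 erythroid precursor markers 4 rose and 1 fell (193 to 312 and 408 to 498), and 2 of 9 hepatocyte markers fell (57300 to 65600 and 33600 to 41700). Neither the T and NK cell markers (0 of 8 passed, 1.87 to 3.92 and 2.89 to 3.63) nor the B and plasma cell markers (0 of 5, 1.22 to 3.53 and 2.31 to 2.7) passed with limma, with 1 of each list at an unadjusted p under 0.05 and none passing with limma-voom. Each of these counts was the same without LIG20 library 2, where 17.9% of all genes tested rose and 5.21% fell. The part of these cells in the changes of the 38 genes was not tested.

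From BDL to LIG20 with limma, where 6.5% of all genes tested rose and 1.08% fell, 7 of 8 endothelial markers rose. Their summed levels of 63.7, 86.7 and 58.9 FPKM in LIG20 lay above the whole BDL range. Without LIG20 library 2, where 0.821% of all genes tested rose and 0.357% fell, 2 of the 8 rose. Limma-voom without that library called 5 of the 8, where 1.39% of all genes rose and 0.371% fell. All 8 were at an unadjusted p under 0.05 with limma, both with and without that library. With all 9 libraries, 2 of 10 stellate cell and myofibroblast markers rose, and of the macrophage markers 1 of 10. Of the neutrophil markers 1 of 9 fell. None of these 3 lists held a call without LIG20 library 2, by limma or limma-voom, where 2, 2 and 1 markers were at an unadjusted p under 0.05. In the B and plasma cell list 1 of 5 rose with or without that library, and in the erythroid list none passed with it (5 at an unadjusted p under 0.05, and 2 with limma-voom) and 2 of 8 fell without it. No hepatocyte, cholangiocyte or T and NK cell marker passed in either fit or with limma-voom, where 1, 1 and 2 were at an unadjusted p under 0.05 over all 9 libraries. The part of these cells in the LIG20 values of the 38 genes was not tested.

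Beside the values of LIG20 library 2 stand those of the markers in it. That library was highest of the 9 libraries for 31.3% of all genes tested. It was highest for 9 of 10 stellate cell and myofibroblast markers, with a sum of 139 FPKM against 70.0 and 91.2 in the other LIG20 libraries. It was also highest for 6 of 8 endothelial markers, with 86.7 against 63.7 and 58.9 FPKM. It was highest for 5 of 10 cholangiocyte, 2 of 9 neutrophil, 2 of 8 erythroid and 1 of 5 B and plasma cell markers, and for none of the hepatocyte, macrophage or T and NK cell markers. The macrophage sum was 666 FPKM in it against 457 and 995 in LIG20 libraries 1 and 3. The T and NK cell sum was 4.03 FPKM in it, against 5.49 and 16.9 in LIG20 libraries 1 and 3. That sum was 1.87 to 3.92 FPKM in sham and 2.89 to 3.63 FPKM in BDL. Of the defining markers, Cd3d was at 0.0168 FPKM in LIG20 library 2, below every other library. Cd3e was at 0.184 FPKM in it, against 0.0745 to 0.109 FPKM in sham and 0.0485 to 0.303 FPKM in BDL. The part of these cells in the level of the 38 genes in that library was not tested.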

How the data were processed

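Liver RNA was extracted with TRIzol and prepared for sequencing with a VAHTS Universal V6 kit, per the labels' protocols, as 9 libraries in 3 groups of 3. The submitters' processing notes name fastp, HISAT2 2.1.0, DESeq2 and the build GRCm39, while neither the counting program nor the annotation is stated there or in the labels. The authors deposited FPKM values in 1 table of 21470 genes, with a column per library named as the sample titles, from which group and replicate number were taken.

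FPKM values are not counts, so the test was limma 3.58.1 in R 4.3.3 on log2(FPKM + 1), with eBayes and a trend, 1 coefficient per group and all 9 libraries in 1 fit, two-sided, adjusted by Benjamini-Hochberg over the 14002 genes with a mean of at least 0.1 FPKM, threshold 0.05. A change on the log2(FPKM + 1) scale understates that of a gene near or below 1 FPKM. That filter was chosen because at least 1 FPKM in 3 libraries would keep only 18 of the 38 genes. In fits that left libraries out, the filter was still taken over all 9 libraries. The fits without LIG20 library 2 thus also tested the 148 genes that passed only through that library. Whole fragments were recovered from the FPKM steps for 100.0% of 19449 genes within 0.02 fragments and used for depth and for limma-voom. The scripts were tested on simulated data.

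The 38 genes, their 7 roles, the 8 lists of other cell cycle genes, the 9 lists of cell markers and the motifs were chosen with earlier results of these data known. From each cell cycle list the 3 genes with the smallest p for BDL against sham and the 2 for LIG20 against BDL could be named, and Nek2 is among them. The markers Tf, Trac and Igkc did not match the table and were not used. Alternatives were other pseudocounts, filters and scalings, voom, a replicate block, single comparisons alone and each library left out. Fits that combine voom or another scaling with the omission of LIG20 library 2 were chosen after seeing the data.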

Additional observations from a re-analysis of the deposited data

How the results depend on the processing

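Depth limits the low genes, since 24 of the 38 were under 1 FPKM in all sham libraries, and 3 libraries per group limit every test. Of 2334 alternative values for single genes of the 38, 2191 kept direction and side of the threshold or turned sign without passing in either setting, 36 lost the call, 104 gained it and 3 reversed. The 3 were LIG20 against sham without LIG20 library 2, for Ccne1 (-0.65 with median-of-ratios scaling and -0.76 with quantile normalization) and Cenpa (-0.52 with quantile normalization). For BDL against sham, 2 of the 38 genes passed in the reported fit, 5 with a pseudocount of 0.1 FPKM, 4 with 0.5 FPKM, 15 with the groups alone, and, without LIG20 library 2, 14 with voom, 8 with median-of-ratios scaling and 7 with quantile normalization. Over all genes 3229 passed as reported, 3612 with a pseudocount of 0.1 FPKM, 3376 with 0.5 FPKM and 3042 with the groups alone. Without LIG20 library 2, 3356 of all genes passed with voom, 3106 with median-of-ratios scaling and 3348 with quantile normalization. Leaving out each library in turn gave 2 to 14 of the 38, and 1878 to 5000 of all genes. For LIG20 against BDL, 0 of the 38 passed as reported, 1 (Tk1) with at least 1 FPKM in 3 libraries, 1 (Tk1) with the groups alone and 0 to 2 with a library left out. Over all genes 1061 passed, 577 with a pseudocount of 0.1 FPKM, 623 with no filter, 480 with median-of-ratios scaling, 3372 with the groups alone, and, without LIG20 library 2, 247 with voom, 118 with median-of-ratios scaling and 290 with quantile normalization. Leaving out each library gave 0 (BDL library 2 or 3) to 3320 (sham library 1). For LIG20 against sham, 14 of the 38 passed, 23 with a pseudocount of 0.1 FPKM, 8 with quantile normalization and 10 to 31 with a library left out. Over all genes 6486 passed, 6578 with that pseudocount, 5370 with quantile normalization and 5226 to 8421 with a library left out. The cause was not tested.

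Libraries share replicate numbers across the groups, but the correlation of same-numbered libraries' deviations from their group means ran from -0.119 to 0.25, so the numbers were not taken to pair them. With the replicate number as a block, 385 genes passed for LIG20 against BDL in place of 1061, and 0 of the 38 as before.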

Other observations

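Genes whose level in LIG20 library 2 stood farthest above the highest other library were ranked over all genes tested, on log2(FPKM + 0.1), after the values had been seen. The genes ranked included 148 that passed the filter only through that library, so a high place for them was favoured by the filter. Of the first 100, 24 were among the 38 genes, Cenpf of those 148 among them. A further 45 were in the 8 lists of other cell cycle genes and 31 were in neither, while none was on a list of cell markers. The 45 held Ttk and Kntc1 of those 148, at no more than 0.0991 and 0.0641 FPKM in any other library. How many more of the 148 were among the 45 and the 31 is not given here. The 31 included Fignl1, a recombination gene (2.53 FPKM against 0.402 in the next library), the chromatin remodeller gene Hells (0.851 against 0.128), Dtl, the substrate receptor that marks replication proteins for degradation (1.87 against 0.403), the checkpoint adaptor gene Clspn (0.657 against 0.146) and Mastl, the Greatwall kinase gene (0.899 against 0.225). The 31 also held genes of matrix and receptors, namely Postn, which codes for the matrix protein periostin (5.2 against 1.75 FPKM), the collagen gene Col8a1 (0.715 against 0.191), the nerve growth factor receptor gene Ngfr (4.2 against 1.34) and the sphingosine phosphate receptor gene S1pr3 (1.78 against 0.635). These are values of 1 library and carry no test.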
